A study of Homo sapiens with 24 samples.

Results

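The genes that make cholesterol and fatty acids were followed in T-47D breast cancer cells after transfection with miRNA mimics or an inhibitor. A list of 31 enzymes and regulators, 21 of the sterol branch and 10 of the fatty acid branch, was looked up by gene symbol in the 3 deposited count tables. All 31 were found among the 26364 genes counted, and all 31 passed the filter on low counts in every comparison. The lowest count of any member in any library was 287, for HSD17B7, so no member was near the limit of detection.

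T-47D is an established luminal, estrogen receptor (ER)-positive breast cancer line. Its clones carried WT ESR1, the gene of ER, or an ESR1 mutation at the endogenous locus on 1 of the alleles, Y537S or D538G, and each genotype was represented by 2 clones that served as duplicates. Cells of every group were kept in hormone-deprived medium and transfected at 10 nM, and RNA was taken 24 h later. The miR-301b-3p mimic was given to all 3 genotypes, the miR-331-3p mimic to Y537S and WT cells and the miR-181c-5p mimic to D538G and WT cells, each beside a mimic negative control in the same genotype. An inhibitor of let-7f-5p and its own inhibitor negative control were used in Y537S cells alone. That makes 12 conditions and 24 poly-A RNA-seq libraries, 1 per clone and condition. A genotype thus rests on 2 clones of 1 cell line, and p-values measure the spread between those clones only. In fits that give each clone its own level (a block), p-values measure how far the change differs between the 2 clones.

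Cholesterol is built from acetyl-CoA through mevalonate, farnesyl diphosphate, squalene and lanosterol, and lanosterol is then trimmed and reduced to cholesterol. Fatty acids are built from the same acetyl-CoA by acetyl-CoA carboxylase and fatty acid synthase, after which elongases and desaturases alter them. Both branches are controlled by the SREBP transcription factors, encoded by SREBF1 and SREBF2, which are held in the endoplasmic reticulum by the INSIG proteins when sterols are plentiful. A miRNA represses an mRNA mainly by pairing of its seed, bases 2 to 8 counted from its 5′ end, with a complementary site in the 3′UTR.

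The 4 mature miRNAs are shown because the seed matches described next depend on their bases 2 to 8, printed in capitals (sequences from RefSeq).
miR-301b-3p: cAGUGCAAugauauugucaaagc
miR-331-3p: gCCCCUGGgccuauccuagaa
miR-181c-5p: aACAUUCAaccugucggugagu
let-7f-5p: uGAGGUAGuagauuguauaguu
No pair of the 4 shares a seed. A 7-base match to the miR-301b-3p seed stood in the annotated 3′UTR of 3 of the 31 members (9.68%), against 14.2% of the 18648 genes with a 3′UTR. For miR-331-3p the match was in 7 members (22.6%, all genes 14.1%), for miR-181c-5p in 5 (16.1%, all genes 19.5%) and for let-7f-5p in 5 (16.1%, all genes 9.87%). A match is a description of the sequence and not a proven site.

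The windows below hold the matches of the members whose changes are described first, with the bases complementary to the seed in capitals, and they are given as mRNA-strand DNA with GRCh37 (hg19) positions of the match.
MSMO1, miR-301b-3p, chr4:166264182-166264188, plus strand: acttgctgtatTTGCACTttgagctcttg
SC5D, miR-301b-3p, chr11:121183403-121183409, plus strand: atgagctataaTTGCACTactgcactcca
INSIG1, miR-301b-3p, chr7:155101836-155101842, plus strand: atgaacaaaatTTGCACTctaccagattt
SCD, miR-181c-5p, chr10:102121254-102121260, plus strand: gttagcatgtaTGAATGTaaggatgaggg
SCD, miR-181c-5p, chr10:102123854-102123860, plus strand: tggaaataattTGAATGTatttgatttat
All 5 lie in 3′UTRs of the GENCODE annotation. The SC5D site and both SCD sites are followed by an A, while those of MSMO1 and INSIG1 are not. SREBF2 held 3 matches to the miR-331-3p seed, at chr22:42302252-42302258, chr22:42302435-42302441 and chr22:42302478-42302484 on the plus strand.

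Levels are given as normalized CPM (counts scaled to a common library size), computed here from the raw counts with TMM factors over all 24 libraries, and 2 levels joined by "and" are always those of the 2 clones. Changes are log2 fold changes from edgeR, fitted on the libraries of each comparison, and a gene is said to be called, to rise or to fall where its p adjusted by Benjamini-Hochberg over all genes tested is under 0.05. Treatments within a genotype share the 2 negative control libraries. Where levels of called genes are said not to overlap, this describes genes picked by their calls and adds no support to them. How many of all genes were separated in this way was not counted. Libraries held 31379962 to 50526442 counts. The 9 luminal epithelial markers were all present (summed CPM 9519 to 14850), while the 3 endothelial and the 3 immune markers were all below 1 CPM on average (summed CPM at most 0.198 and 1.07). Of the fibroblast markers, COL1A1 was at 63.0 CPM on average and the other 3 were under 1. Of the 4 basal markers KRT5 and KRT14 were under 1, while ACTA2 (3.81 CPM) and TP63 averaged at least 1 (summed CPM of the 4 from 2.33 to 11.75).

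The members' changes after the mimics followed the GC content of their transcripts. Across the 31 members Pearson's r between GC content and log2 fold change was 0.80 to 0.89 in the 7 mimic comparisons, 0.55 after the let-7f inhibitor, and -0.21 and -0.00 between Y537S or D538G and WT control cells. These are correlations over genes that share libraries, and they carry no p-value. Over all genes tested r was 0.33 to 0.51 in the mimic comparisons and 0.14 after the inhibitor, with the same sign as among the members. For the difference of the miR-331 log2 fold changes, Y537S minus WT, r was 0.69 among the members and 0.04 over all genes. Among the members it was 0.36 and 0.53 for the miR-301b differences of Y537S and D538G from WT, and 0.03 for the miR-181c difference. STARD4 (34.4% GC), SC5D (36.9%), MSMO1 (37.4%) and IDI1 (37.9%) stood at the low end, and SREBF1 (63.2%), FASN (65.3%) and MVD (65.5%) at the high end. Each change below is therefore also given, where it matters, from a fit that blocks the clone and removes the trend on GC content from every library. The block alone raised the number of calls, so a call in that fit is not a like-for-like check of one without the block. Calls with the GC trend removed and no block are counted in the closing section. Whether the trend itself is technical or biological was not tested.

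**Figure D1:**
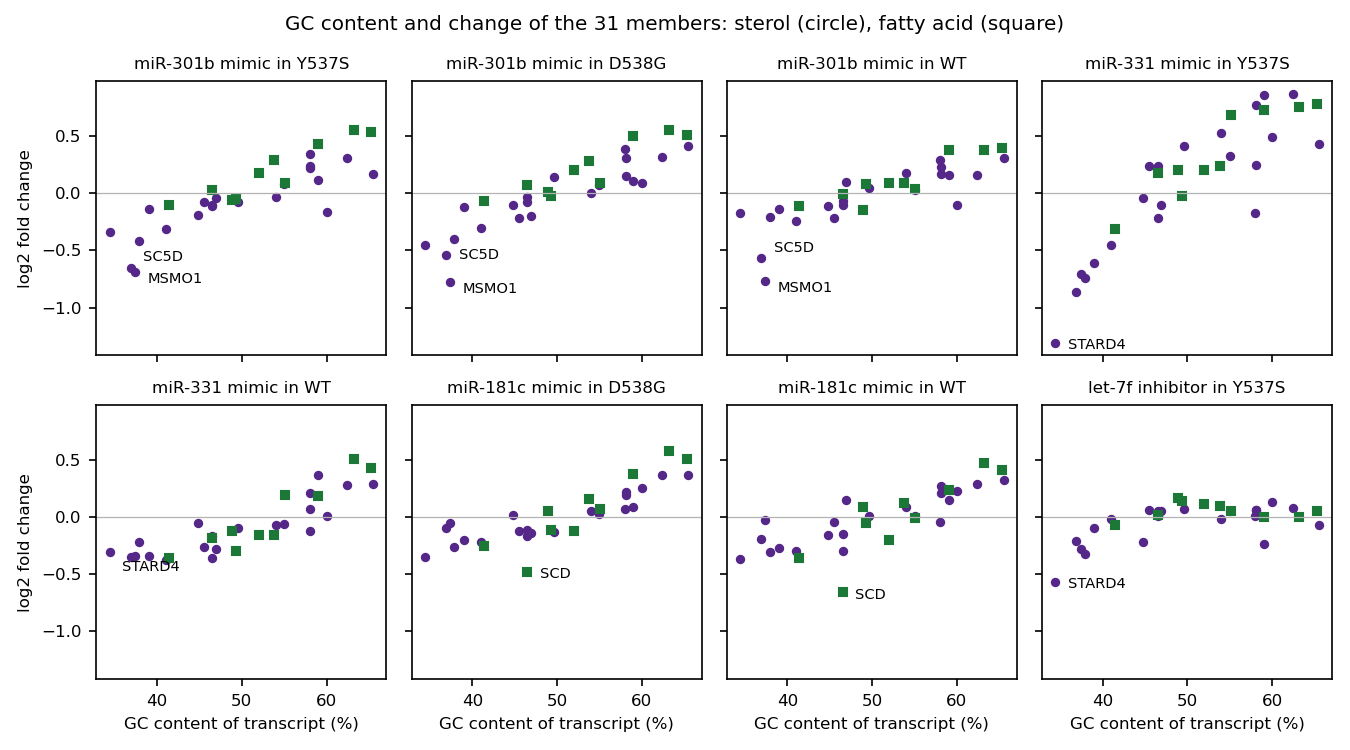
GC content of the transcript (x axis, percent) and log2 fold change (y axis) of the 31 members in the 8 treatment comparisons, with sterol genes as circles and fatty acid genes as squares. The points climb from left to right in all 7 mimic panels (r from 0.80 to 0.89), and MSMO1 and SC5D after miR-301b and SCD after miR-181c lie below the other genes of their GC content.

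The levels by genotype were compared in cells given the mimic negative control. Per kb of transcript, SCD, the desaturase that makes oleic acid, stood highest of the members in all 3 genotypes (mean 495, 597 and 531 CPM per kb in Y537S, D538G and WT). FASN, the fatty acid synthase, came next (172, 243 and 218). At the low end were ELOVL6, an elongase (6.87, 6.80 and 7.39), and HSD17B7, a sterol reductase (7.05, 7.65 and 5.76). The length used is that of 1 annotated transcript per gene, which the cells need not use.

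Some sterol enzymes were higher in Y537S than in WT cells, while TM7SF2 and SC5D, given in the next paragraph, were lower. NSDHL, a dehydrogenase that removes a methyl group from sterols, was at 63.3 and 54.7 CPM in Y537S and 23.4 and 26.2 in WT clones (log2 fold change 1.26 ± 0.117 SE, edgeR adjusted p = 0.000428). ACAT2, the thiolase that opens the pathway, was at 75.3 and 65.1 against 31.4 and 34.9 CPM (log2 fold change 1.10 ± 0.111 SE, edgeR adjusted p = 0.000629). EBP, a sterol isomerase, was at 119.5 and 100.0 against 61.5 and 68.9 CPM (log2 fold change 0.77 ± 0.11 SE, edgeR adjusted p = 0.0026). No level of these 3 genes, picked as called rises, overlapped between the genotypes. SQLE, squalene epoxidase, was the other sterol gene that was called higher (log2 fold change 0.35 ± 0.0949, edgeR adjusted p = 0.031).

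Y537S cells had less of the lipogenic regulator. SREBF1 was at 188 and 172 CPM against 244 and 242 in WT (log2 fold change -0.42 ± 0.0773 SE, edgeR adjusted p = 0.00753). TM7SF2, a sterol reductase, was at 251 and 244 against 290.4 and 346 CPM (log2 fold change -0.34 ± 0.0962 SE, edgeR adjusted p = 0.0335), and SC5D, a sterol desaturase, at 258 and 277 against 323 and 331 CPM (log2 fold change -0.27 ± 0.0782 SE, edgeR adjusted p = 0.0373). FADS1, a desaturase of polyunsaturated fatty acids, went the other way, at 86.5 and 83.8 against 52.6 and 56.9 CPM (log2 fold change 0.65 ± 0.0892 SE, edgeR adjusted p = 0.00215). In all, 5 of the 31 members were higher and 3 lower, beside 16.3% and 12.7% of all genes, so the members were called about as often as any gene. SREBF2 and INSIG1 were not called (log2 fold change -0.15 ± 0.079 and 0.11 ± 0.0902). The count fell from 8 to 5 without WT clone D1 or without WT clone D4. SREBF1 (edgeR adjusted p = 0.0704 and 0.0575) and SC5D (0.191 and 0.225) lost their calls without either WT clone, SC5D also without Y537S clone 1 (0.0588), and TM7SF2 without D4 (0.282).

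In D538G cells ACAT2 and EBP were also higher than in WT, and FADS2 and FADS1 were lower. FADS2, which works beside FADS1 on polyunsaturated fatty acids, was at 32.3 and 21.9 CPM in D538G and 68.6 and 64 in WT clones (log2 fold change -1.30 ± 0.154 SE, edgeR adjusted p = 0.000229). FADS1 was at 32.9 and 38.7 against 52.6 and 56.9 CPM (log2 fold change -0.63 ± 0.103 SE, edgeR adjusted p = 0.00136). ACAT2 was at 51.9 and 58.9 CPM (log2 fold change 0.73 ± 0.101 SE, edgeR adjusted p = 0.000541) and EBP at 102 and 111 CPM (log2 fold change 0.70 ± 0.0877 SE, edgeR adjusted p = 0.000326). All 4, picked by their calls, were separated from WT in both clones. FADS1 and FADS2 overlap each other on opposite strands, and ACAT2 overlaps TCP1 and SOD2. The strand setting of the counting is not given in the sources used here, so reads of such partners may not have been told apart.

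Among the other members, PMVK, phosphomevalonate kinase, was at 81.1 and 86.9 against 57.9 and 61.6 CPM (log2 fold change 0.48 ± 0.082 SE, edgeR adjusted p = 0.0017). LSS, lanosterol synthase, was at 215 and 202 against 145 and 163 CPM (log2 fold change 0.42 ± 0.0777 SE, edgeR adjusted p = 0.00251). AACS, acetoacetyl-CoA synthetase, was at 52.7 and 43.5 against 63.5 and 69.2 CPM (log2 fold change -0.48 ± 0.104 SE, edgeR adjusted p = 0.00605), and MVK, mevalonate kinase, at 57.9 and 51.5 against 67.1 and 79 CPM (log2 fold change -0.43 ± 0.101 SE, edgeR adjusted p = 0.00868). FDPS and NSDHL were also called higher, by 0.28 and 0.36 on the log2 scale. HMGCS1, MVD, SC5D, STARD4, ACSS2 and INSIG1 were called lower, with log2 fold changes from -0.38 to -0.21. In total 6 of 31 members were higher and 10 lower, beside 20.4% and 18.5% of all genes. SREBF1 and SREBF2 were not called (0.04 ± 0.0755 and 0.03 ± 0.0642). INSIG1 lost its call without any single one of the 4 libraries (edgeR adjusted p = 0.0763 to 0.236), and MVK without WT clone D4 (0.0666).

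The mutants were also compared with each other, a test added after the data had been seen. FADS1 was higher in Y537S than in D538G clones (log2 fold change 1.27 ± 0.106 SE, edgeR adjusted p = 0.00403), as were NSDHL (0.90), MVK (0.47) and SQLE (0.42). PMVK (-0.49), FASN (-0.47) and SREBF1 (-0.46) were lower. These are 4 and 3 of 31 members, beside 3.93% and 2.26% of all genes. Without D538G clone A5 or without clone C2, 2 members were called. FADS1 was the one of the 7 that passed in both fits, and NSDHL missed without A5 (edgeR adjusted p = 0.0543). Each genotype was deposited as a table of its own, so a difference between tables and one between genotypes cannot be told apart.

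**Figure D2:**
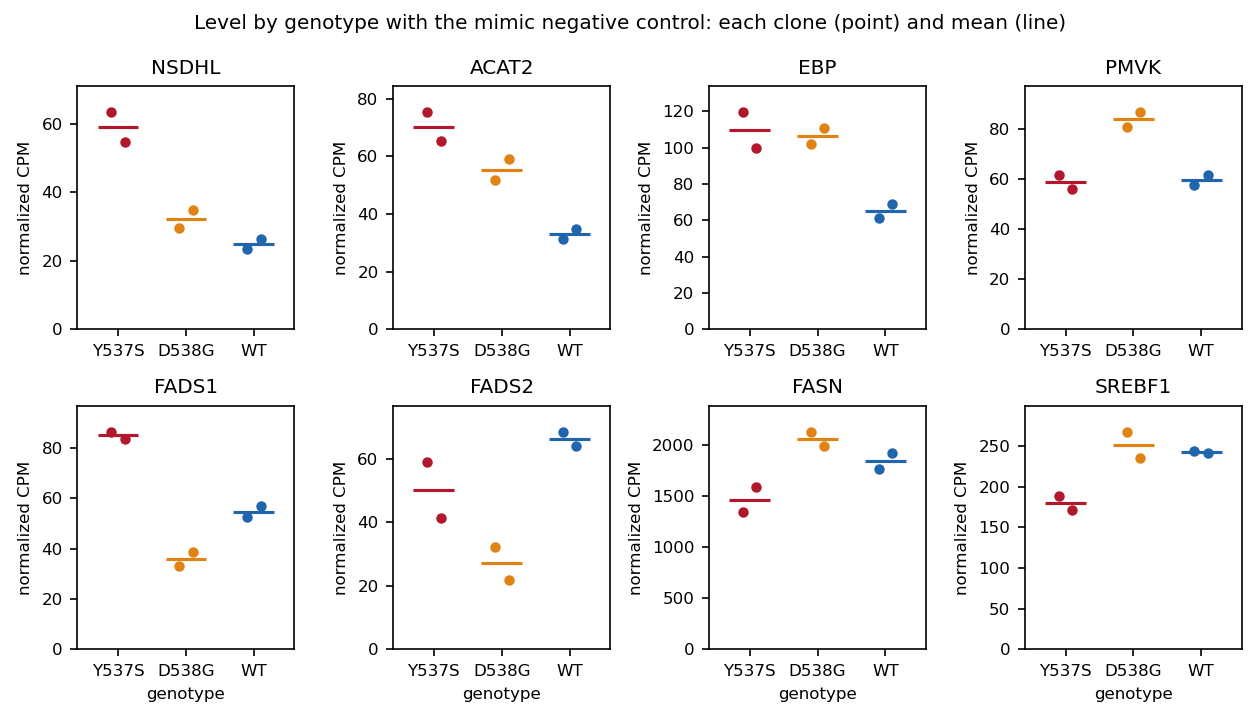
Normalized CPM (y axis, from 0) of 8 members in cells given the mimic negative control, by genotype (x axis), with each clone as a point and the mean as a line. FADS1 ran from 32.9 to 38.7 CPM in D538G, 52.6 to 56.9 in WT and 83.8 to 86.5 in Y537S clones, and NSDHL and ACAT2 were lowest in WT.

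After the miR-301b mimic 2 enzymes of late sterol synthesis fell in all 3 genotypes. MSMO1, the sterol methyl oxidase, was at 56.5 and 63.5 CPM in Y537S cells against 92.5 and 98.3 with the control (log2 fold change -0.69 ± 0.103 SE, edgeR adjusted p = 0.0321). In D538G cells it was at 59.5 and 57.1 against 94.2 and 106 CPM (log2 fold change -0.78 ± 0.0935 SE, edgeR adjusted p = 0.00315), and in WT cells at 69.2 and 55.9 against 104 and 109.7 CPM (log2 fold change -0.77 ± 0.109 SE, edgeR adjusted p = 0.00689). Treated and control levels did not overlap in any genotype, and the mimic left 0.581 to 0.618 of the control level.

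SC5D, the desaturase that acts near the end of the pathway, fell alongside. It was at 173 and 174 against 258 and 277 CPM in Y537S (log2 fold change -0.65 ± 0.0874 SE, edgeR adjusted p = 0.0284), 174 and 176 against 238 and 268 in D538G (log2 fold change -0.54 ± 0.0858 SE, edgeR adjusted p = 0.0071) and 243 and 196 against 323 and 331 in WT cells (log2 fold change -0.57 ± 0.102 SE, edgeR adjusted p = 0.0159). These 2 genes and INSIG1 are the 3 members with a miR-301b-3p seed match. INSIG1 was not called in any genotype (log2 fold change -0.19 ± 0.102, -0.10 ± 0.0819 and -0.11 ± 0.0797). With clones blocked and the GC trend removed, MSMO1 was called lower in Y537S (-0.42, edgeR adjusted p = 3.87e-11), D538G (-0.48, 6.91e-09) and WT cells (-0.57, 9.75e-10). SC5D was too, by smaller amounts (-0.36, -0.21 and -0.36, edgeR adjusted p = 1.99e-12, 0.000861 and 1.5e-08). With the GC trend removed and no block, MSMO1 was at -0.42 and SC5D at -0.36 in Y537S cells, where 0 members were called. In Y537S cells MSMO1 lost its call without treated clone 1 or either control library (edgeR adjusted p = 0.0653 to 0.0972), and SC5D without treated clone 2 or either control library (0.0517 to 0.0854). In D538G and WT cells both genes kept their calls without any single library. Neither gene has a miR-331-3p seed match, and both also fell after the miR-331 mimic described below. MSMO1 and SC5D then changed by -0.71 and -0.86 in Y537S and by -0.34 and -0.35 in WT cells. With block and GC correction those values were -0.18 and -0.30, and -0.15 and -0.16.

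SREBF1 rose after miR-301b in all 3 genotypes and SREBF2 in 2 of them. SREBF1 was at 255 and 279 against 188 and 172 CPM in Y537S (log2 fold change 0.55 ± 0.0933 SE, edgeR adjusted p = 0.042), at 364 and 374 against 268 and 236 in D538G (log2 fold change 0.55 ± 0.0838 SE, edgeR adjusted p = 0.00643) and at 302 and 329 against 244 and 242 in WT cells (log2 fold change 0.38 ± 0.0734 SE, edgeR adjusted p = 0.0214). SREBF2 rose in D538G, from 217 and 215 to 274 and 294 CPM (log2 fold change 0.39 ± 0.0778 SE, edgeR adjusted p = 0.0148), and in WT cells, from 209 and 210.3 to 251 and 264 CPM (log2 fold change 0.29 ± 0.07 SE, edgeR adjusted p = 0.0394). In Y537S cells SREBF2 was at 244 and 235 against 196 and 177 CPM and missed the threshold (0.34, edgeR adjusted p = 0.0944). With block and GC correction the SREBF1 rise shrank to 0.23 in Y537S and 0.23 in D538G (edgeR adjusted p = 1.9e-05 and 0.000152), and to 0.04 in WT cells, where it was not called (0.591). SREBF2 was then 0.14, 0.20 and 0.11, called in Y537S and D538G but not in WT cells (0.0117, 0.00173 and 0.0661).

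FASN was at 2878 and 2991 against 2124 and 1982 CPM in D538G (log2 fold change 0.51 ± 0.0703 SE, edgeR adjusted p = 0.00483) and at 2332 and 2525 against 1765 and 1917 in WT cells (log2 fold change 0.40 ± 0.0692 SE, edgeR adjusted p = 0.0144). In Y537S cells it was at 1897 and 2409 against 1336 and 1583 CPM, which did not pass (0.54, edgeR adjusted p = 0.0998). The WT rise of FASN ended when GC content was taken out (-0.00, edgeR adjusted p = 0.971), while in D538G 0.15 was left (0.00548). D538G cells also had more MVD, the mevalonate decarboxylase, at 77.8 and 85.3 against 63.8 and 59.1 CPM (log2 fold change 0.41 ± 0.0915 SE, edgeR adjusted p = 0.0235), and more DHCR7, a late sterol reductase (0.31). They had less STARD4, which carries cholesterol between membranes, at 25.2 and 28.6 against 33.9 and 39.6 CPM (log2 fold change -0.45 ± 0.12 SE, edgeR adjusted p = 0.0389), and less IDI1, the isopentenyl isomerase, at 173 and 163 against 220.0 and 222 CPM (log2 fold change -0.40 ± 0.0785 SE, edgeR adjusted p = 0.0147). FADS2 rose in WT cells, from 68.6 and 64 to 86.7 and 85.8 CPM (log2 fold change 0.38 ± 0.0815 SE, edgeR adjusted p = 0.0298). MVD, DHCR7, STARD4 and IDI1 were not called in D538G with block and GC correction (0.03, 0.12, -0.04 and -0.11, edgeR adjusted p = 0.803, 0.088, 0.815 and 0.109).

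By branch, the sterol genes counted 0 up and 2 down in Y537S, 3 up and 4 down in D538G, and 1 up and 2 down in WT cells. The fatty acid genes counted 1, 2 and 3 up and 0 down. Over the 31 members this is 1 up and 2 down beside 1.23% and 2.34% of all genes in Y537S, 5 up and 4 down beside 5.29% and 6.49% in D538G, and 4 up and 2 down beside 4.63% and 3.87% in WT cells. With the clone as a block the counts were 10 up and 8 down (all genes 18.4% and 20.0%), 9 and 6 (16.4% and 16.9%), and 8 and 6 (14.0% and 14.2%). The median log2 fold change of the sterol branch was -0.08, -0.03 and -0.07 and that of the fatty acid branch 0.14, 0.14 and 0.08, with medians over all genes between 0.00 and 0.01. In Y537S cells the count of 3 fell to 1 without treated clone 2 and to 0 without either control library. SREBF1 lost its call in those 3 fits (edgeR adjusted p = 0.114 to 0.150). In D538G cells the count of 9 fell to 4 without treated clone C2 and 6 without control clone C2. In WT cells the count of 6 went to 12 without treated clone D1, 2 without control clone D1 and 3 without control clone D4. SREBF1, FADS2 and SREBF2 lost their WT calls without either control clone (edgeR adjusted p = 0.0795 to 0.284) and FASN without D1 (0.178). STARD4, MVD, IDI1 and SREBF2 lost their D538G calls without treated clone C2 (0.0503 to 0.105).

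The difference of the miR-301b responses between genotypes was tested for each member. No member was called for Y537S minus WT or for D538G minus WT, where 0.00632% and 0.00640% of all genes were called. In both, 0 members had an unadjusted p under 0.05, beside 343 of 15814 and 478 of 15613 genes. DESeq2 and the clone block also called 0. For MSMO1 the differences were 0.09 ± 0.163 and -0.01 ± 0.153 on the log2 scale, and for SC5D -0.06 ± 0.147 and 0.04 ± 0.144. Those of SREBF1 (0.18 ± 0.114 and 0.17 ± 0.113), SREBF2 (0.06 ± 0.109 and 0.10 ± 0.102) and INSIG1 (-0.06 ± 0.124 and 0.01 ± 0.111) were of similar precision. Smaller differences were not detectable with 2 clones a genotype.

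**Figure D3:**
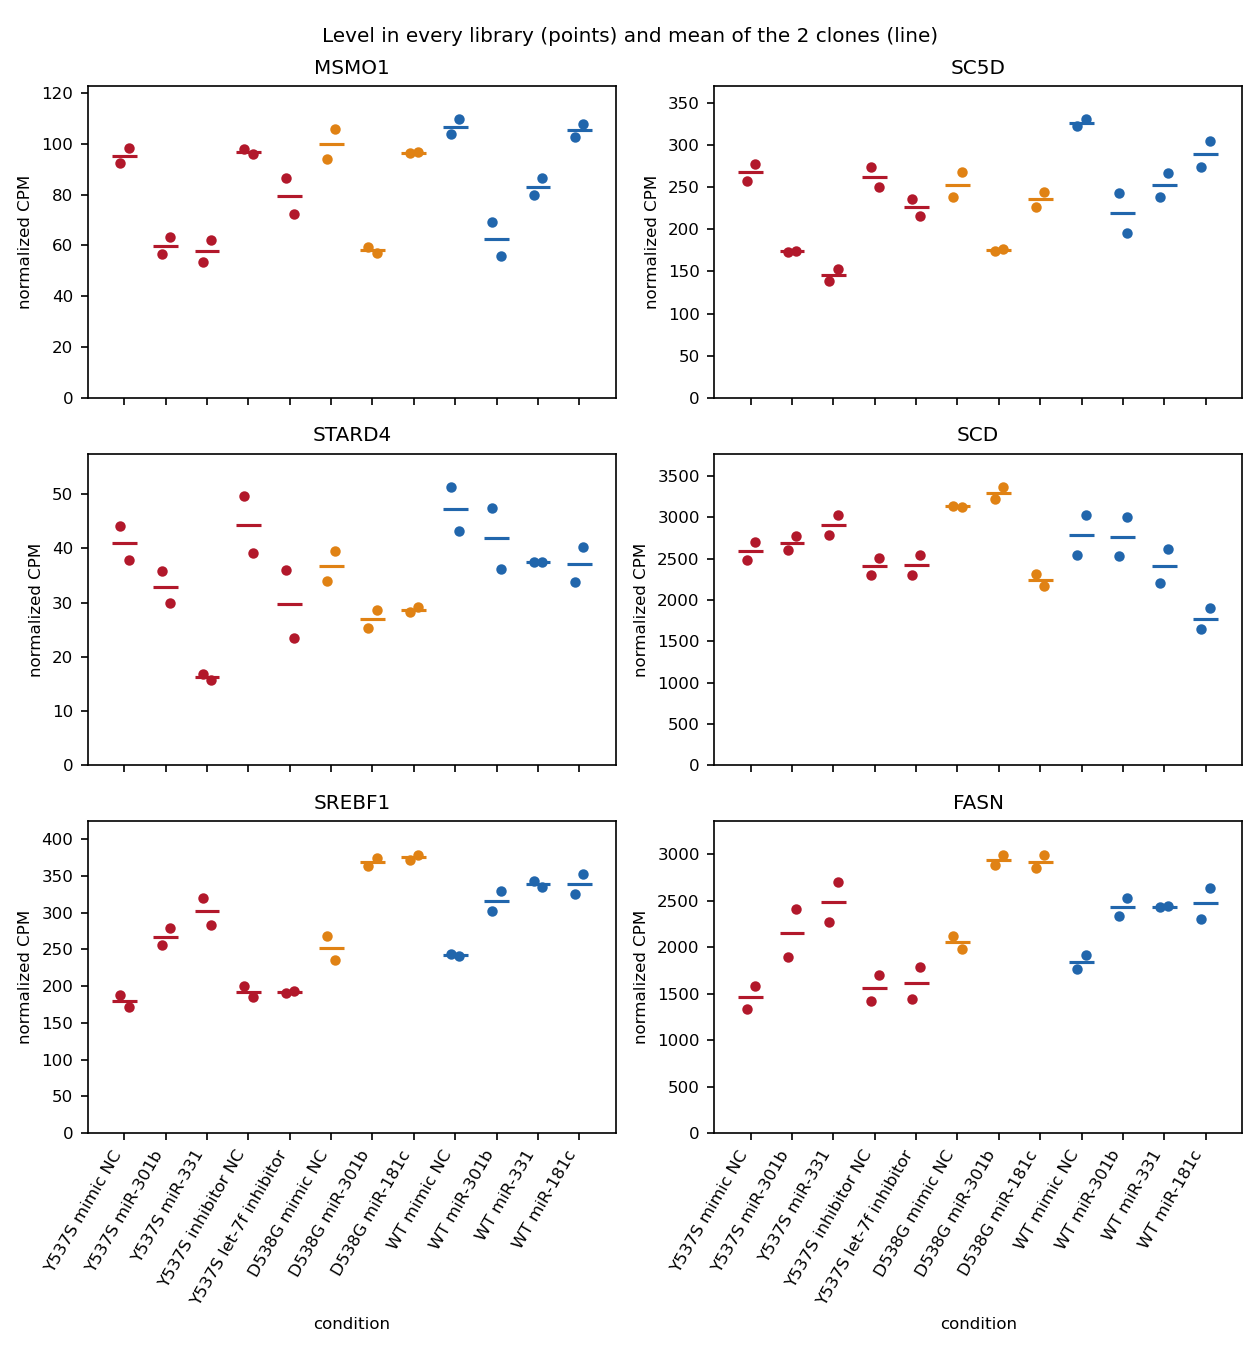
Normalized CPM (y axis, from 0) of 6 members in all 24 libraries by condition (x axis), with each clone as a point and the mean as a line, NC standing for negative control. MSMO1 was at 55.9 to 69.2 CPM with miR-301b in the 3 genotypes and at 92.5 to 110 with the mimic negative control, and SCD was at 1652 to 2318 CPM with miR-181c, below the controls of the same genotype.

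The miR-331 mimic gave the largest changes of the list in Y537S cells, and it split the sterol branch. STARD4 fell from 44.1 and 37.8 to 16.9 and 15.7 CPM (log2 fold change -1.31 ± 0.129 SE, edgeR adjusted p = 0.00617), to 0.402 of the control level. SC5D fell from 258 and 277 to 138 and 153 CPM (log2 fold change -0.86 ± 0.103 SE, edgeR adjusted p = 0.00665), IDI1 from 218 and 242 to 125 and 147 CPM (log2 fold change -0.74 ± 0.124 SE, edgeR adjusted p = 0.011) and MSMO1 from 92.5 and 98.3 to 53.4 and 62.2 CPM (log2 fold change -0.71 ± 0.116 SE, edgeR adjusted p = 0.0106). HMGCS1, the synthase that commits carbon to mevalonate, and CYP51A1, the lanosterol demethylase, fell as well (-0.61 and -0.45). None of the treated levels of these 6 called genes overlapped the controls.

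Other steps of the same pathway rose in the same libraries. TM7SF2 went from 251 and 244 to 462 and 435 CPM (log2 fold change 0.87 ± 0.0831 SE, edgeR adjusted p = 0.00617), PMVK from 61.7 and 56.2 to 112 and 99.9 CPM (log2 fold change 0.86 ± 0.106 SE, edgeR adjusted p = 0.00673) and DHCR7 from 225 and 240.0 to 396 and 385 CPM (log2 fold change 0.77 ± 0.0882 SE, edgeR adjusted p = 0.00638). EBP, MVK and NSDHL rose by less (0.53, 0.49 and 0.41). In the fatty acid branch FASN went from 1336 and 1583 to 2273 and 2700 CPM (log2 fold change 0.78 ± 0.131 SE, edgeR adjusted p = 0.0111), SREBF1 from 188 and 172 to 319.9 and 283 CPM (log2 fold change 0.76 ± 0.103 SE, edgeR adjusted p = 0.00764) and AACS rose by 0.69. SREBF2 and INSIG1 were not called (-0.17 ± 0.0942 and -0.04 ± 0.107).

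These 9 rises and 6 falls among 31 members stand beside 17.2% and 15.8% of all genes in that comparison, and with the block 19 rose and 9 fell (30.5% and 30.2% of all genes). The median change was 0.24 in the sterol and 0.22 in the fatty acid branch against -0.01 over all genes. With block and GC correction STARD4 was still lower by a log2 fold change of -0.60 (edgeR adjusted p = 3.9e-10), and PMVK (0.59), TM7SF2 (0.54), DHCR7 (0.52), FASN (0.42) and SREBF1 (0.42) were still higher. SC5D, IDI1 and MSMO1 kept -0.30, -0.25 and -0.18, which also passed (edgeR adjusted p = 6.09e-07, 8.34e-05 and 0.0212). HMGCS1 shrank to -0.17 (0.00669) and CYP51A1 to -0.13, which was not called (0.0772). With any single library left out, 13 to 17 members were called.

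In WT cells the miR-331 mimic lowered 9 members and raised 4. CYP51A1 fell from 125 and 140.3 to 92.2 and 108 CPM (log2 fold change -0.38 ± 0.0856 SE, edgeR adjusted p = 0.00845), SQLE from 175 and 206 to 130.4 and 160.3 CPM (log2 fold change -0.36 ± 0.0997 SE, edgeR adjusted p = 0.0222), ELOVL6 from 46.5 and 50.6 to 33 and 41.7 CPM (log2 fold change -0.36 ± 0.106 SE, edgeR adjusted p = 0.0323) and SC5D from 323 and 331 to 239 and 267 CPM (log2 fold change -0.35 ± 0.064 SE, edgeR adjusted p = 0.00335). MSMO1, HMGCS1, STARD4, FADS1 and IDI1 fell too, by log2 fold changes from -0.34 to -0.22. SREBF1 rose from 244 and 242 to 343 and 335 CPM (log2 fold change 0.51 ± 0.0549 SE, edgeR adjusted p = 0.000237), FASN from 1765 and 1917 to 2427 and 2439 CPM (log2 fold change 0.43 ± 0.0535 SE, edgeR adjusted p = 0.000461), PMVK from 57.9 and 61.6 to 75.7 and 75.8 CPM (log2 fold change 0.37 ± 0.0667 SE, edgeR adjusted p = 0.00307) and TM7SF2 from 290.4 and 346 to 359 and 401 CPM (log2 fold change 0.28 ± 0.0835 SE, edgeR adjusted p = 0.0319). SREBF2 and INSIG1 were not called (-0.12 ± 0.0563 and -0.05 ± 0.0638). The 4 rises and 9 falls stand beside 14.2% and 10.6% of all genes, and with the block there were 8 and 14 (19.8% and 17.2%). With block and GC correction the split was 0 up and 18 down. The share over all genes in that fit is not given here, so this split is no result about the members as a set. The branch medians were -0.12 and -0.14, against -0.00 over all genes.

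The 4 rises and 2 of the falls in WT cells depended on how GC content was treated. After block and GC correction SREBF1 was at 0.07 and PMVK at 0.11 (edgeR adjusted p = 0.153 and 0.169), and FASN and TM7SF2 turned to -0.09 and -0.11 (0.0114 and 0.0208). Of the falls, those of STARD4 and IDI1 also lost their calls (-0.11 and -0.04, edgeR adjusted p = 0.296 and 0.551). SQLE, CYP51A1, ELOVL6, SC5D, FADS1, HMGCS1 and MSMO1 stayed called lower, by log2 fold changes from -0.29 to -0.15. Without treated WT clone D1 the count of 13 fell to 3. CYP51A1 (edgeR adjusted p = 0.109), SQLE (0.212), ELOVL6 (0.274), SC5D (0.0598) and TM7SF2 (0.0567) then lost their calls. TM7SF2 also lost its call without treated clone D4 or control clone D1 (0.174 and 0.182). SQLE and ELOVL6 also lost theirs without control clone D4 (0.104 and 0.107).

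The response to miR-331 differed between Y537S and WT cells for 6 of 31 members, beside 9.94% of all genes. STARD4 fell further in Y537S, by a difference of the log2 fold changes of -1.02 ± 0.166 SE (edgeR adjusted p = 0.00956). SC5D did so as well (-0.53 ± 0.118, 0.0292). The change was more upward in Y537S for DHCR7 (0.68 ± 0.145, 0.0258) and TM7SF2 (0.58 ± 0.135, 0.0335), and likewise for AACS (0.49) and PMVK (0.48). SREBF1, SREBF2 and INSIG1 did not pass (0.24 ± 0.115, -0.07 ± 0.0988 and 0.00 ± 0.115). With the clone as a block 23 members were called (34.1% of all genes). For all 9 of the fatty acid genes among them the change, not the level, was more upward in Y537S. Under block and GC correction DHCR7 (0.70), TM7SF2 (0.69) and STARD4 (-0.48) were called and SC5D was not (-0.13, edgeR adjusted p = 0.0999).

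These calls depended on single libraries. No member was called without WT treated clone D1, WT treated clone D4 or WT control clone D4. There were 1 without Y537S treated clone 1, 2 without either Y537S control library, 3 without WT control clone D1 and 12 without Y537S treated clone 2. STARD4 had edgeR adjusted p = 0.0505 to 0.0578 in the 3 fits that lost it, and DHCR7 0.0506 to 0.126.

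**Figure D4:**
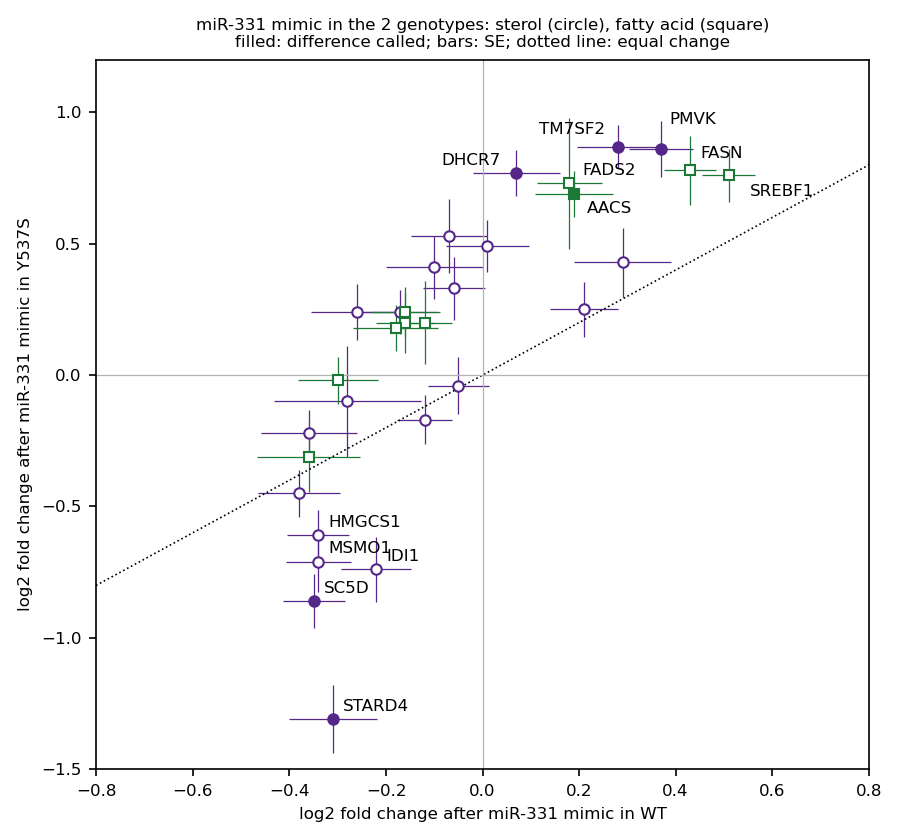
Log2 fold change after the miR-331 mimic in WT (x axis) and Y537S cells (y axis) for the 31 members, with bars of 1 SE, sterol genes as circles, fatty acid genes as squares, filled where the difference between genotypes was called, and a dotted line of equal change. STARD4 and SC5D lie below the line and DHCR7, TM7SF2, PMVK and AACS above it.

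The 7 members with a miR-331-3p seed match did not move one way. In Y537S cells HMGCS1 fell (-0.61), MVK rose (0.49), and FADS2 (0.73 ± 0.25), LSS (0.25 ± 0.105), ACSS2 (0.24 ± 0.0965), SCD (0.18 ± 0.0867) and SREBF2 were not called. In WT cells HMGCS1 was again the one that was called (-0.34). SREBF2 is the member with 3 matches. With block and GC correction it was lower in Y537S (-0.42, edgeR adjusted p = 2.99e-11) and in WT cells (-0.34, 4.24e-06), from 196 and 177 to 162 and 165 CPM and from 209 and 210.3 to 188 and 191 CPM before any correction. In that fit the other matched members went both ways. In Y537S cells FADS2 (0.45), SCD (0.27) and MVK (0.20) were called higher, HMGCS1 lower (-0.17), and LSS (0.00) and ACSS2 (0.09) were not called. In WT cells MVK (-0.28), ACSS2 (-0.23), HMGCS1 (-0.16) and SCD (-0.10) were called lower, and FADS2 (-0.07) and LSS (-0.01) were not called.

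The miR-181c mimic lowered SCD in both genotypes that received it. SCD was at 2318 and 2173 CPM against 3140 and 3126 in D538G (log2 fold change -0.48 ± 0.0575 SE, edgeR adjusted p = 0.00292) and at 1652 and 1898 against 2542 and 3030 in WT cells (log2 fold change -0.66 ± 0.0935 SE, edgeR adjusted p = 0.00153), which is 0.719 and 0.631 of the control level. Its levels did not overlap the controls. The falls with block and GC correction were -0.39 and -0.58 (edgeR adjusted p = 1.24e-20 and 5.75e-12), and SCD kept its call in both genotypes without any single library. The difference between genotypes was 0.19 ± 0.119 and was not called. SCD holds both of the windows printed above for this miRNA.

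The other 4 members with a miR-181c-5p match were ELOVL6, FDFT1, SC5D and STARD4. ELOVL6 fell in WT cells, from 46.5 and 50.6 to 35.7 and 40.6 CPM (log2 fold change -0.36 ± 0.0971 SE, edgeR adjusted p = 0.0302), and was not called in D538G (-0.25 ± 0.0907) or in WT cells with block and GC correction (-0.19, edgeR adjusted p = 0.0966). FDFT1, squalene synthase (-0.17 ± 0.0665 and -0.15 ± 0.0768), SC5D (-0.10 ± 0.0806 and -0.19 ± 0.0744) and STARD4 (-0.35 ± 0.107 and -0.37 ± 0.115) were not called in D538G or WT cells.

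SREBF1 and FASN rose after miR-181c in both genotypes. SREBF1 was at 372 and 378 against 268 and 236 CPM in D538G (log2 fold change 0.58 ± 0.0787 SE, edgeR adjusted p = 0.00419) and at 326 and 353 against 244 and 242 in WT cells (log2 fold change 0.47 ± 0.0705 SE, edgeR adjusted p = 0.00212). FASN was at 2846 and 2992 against 2124 and 1982 CPM (log2 fold change 0.51 ± 0.0607 SE, edgeR adjusted p = 0.00261) and at 2304 and 2637 against 1765 and 1917 CPM (log2 fold change 0.41 ± 0.0783 SE, edgeR adjusted p = 0.00707). With block and GC correction SREBF1 kept 0.25 and 0.17, both called (edgeR adjusted p = 2.9e-07 and 0.0213). FASN kept 0.12 in D538G and 0.06 in WT cells, where it was not called (0.000214 and 0.333). D538G cells had more MVD, 79.3 and 79.2 against 63.8 and 59.1 CPM (log2 fold change 0.37 ± 0.0812 SE, edgeR adjusted p = 0.0228), and more TM7SF2, 357 and 340.2 against 299 and 242 CPM (log2 fold change 0.37 ± 0.0976 SE, edgeR adjusted p = 0.0442), and neither was called with block and GC correction (-0.02 and 0.07).

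WT cells had less IDI1, 154 and 187 against 206 and 213 CPM (log2 fold change -0.31 ± 0.0934 SE, edgeR adjusted p = 0.0454), less CYP51A1, 102 and 116 against 125 and 140.3 CPM (log2 fold change -0.30 ± 0.0899 SE, edgeR adjusted p = 0.0476), and less HMGCS1 (-0.27). IDI1, CYP51A1 and HMGCS1 were not called with block and GC correction (-0.07, -0.11 and -0.05, edgeR adjusted p = 0.421, 0.207 and 0.607). SREBF2 and INSIG1 were not called in D538G (0.07 ± 0.0687 and 0.02 ± 0.0752) or WT cells (-0.04 ± 0.0696 and -0.16 ± 0.0845). In D538G 4 of 31 members rose and 1 fell, beside 5.58% and 3.95% of all genes, and in WT 2 rose and 5 fell, beside 8.10% and 8.28%. With the block it was 8 and 7 (15.6% and 13.6%) and 8 and 9 (14.5% and 13.4%). Branch medians were -0.05 and 0.06 in D538G and -0.03 and 0.04 in WT cells, against -0.00 and 0.01 over all genes.

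The D538G count of 5 became 3 without treated clone A5, treated clone C2 or control clone C2, and the WT count of 7 became 3 without control clone D1 or D4. MVD and TM7SF2 lost their D538G calls in those 3 fits (edgeR adjusted p = 0.0727 to 0.113 and 0.0943 to 0.240). ELOVL6, IDI1 and CYP51A1 lost their WT calls without control clone D1, control clone D4 or treated clone D1 (0.0718 to 0.187, 0.122 to 0.189 and 0.0633 to 0.279). No member was called in the difference between D538G and WT responses (0.00646% of all genes), and DESeq2 and the clone block called 0. An unadjusted p under 0.05 was reached by 0 members, beside 453 of 15482 genes. SREBF1, SREBF2 and INSIG1 differed by 0.12 ± 0.105, 0.12 ± 0.0926 and 0.19 ± 0.112.

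The let-7f inhibitor in Y537S cells called no member with edgeR or DESeq2, and edgeR called 0% of all genes. With an unadjusted p under 0.05 there were 3 of 31, beside 786 of the 15140 genes tested. The 2 members with the smallest p were IDI1, at 182 and 175 against 226 and 222 CPM with the inhibitor negative control (log2 fold change -0.32 ± 0.0678 SE, edgeR adjusted p = 0.751), and PMVK, at 63.5 and 68.4 against 78 and 78.9 CPM (log2 fold change -0.24 ± 0.078 SE, edgeR adjusted p = 0.906). With the mimic negative control PMVK was at 61.7 and 56.2 CPM in the same clones, also below the inhibitor negative control. SREBF1 was at 191 and 193 against 199.8 and 185 CPM (0.00 ± 0.0708), SREBF2 at 206 and 192 against 209 and 187 CPM (0.01 ± 0.0849) and INSIG1 at 90.3 and 102 against 109.9 and 115 CPM (-0.22 ± 0.0903). The treated levels of IDI1, PMVK and INSIG1 lay below both controls. For 2 against 2 libraries such a separation has p = 0.333 in a two-sided exact permutation test, and it was not counted over all genes.

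Blocking the clone changed the calls of the inhibitor comparison. With the clone as a block 6 sterol genes fell and 2 fatty acid genes rose, beside 6.88% and 4.31% of all genes. IDI1 (-0.32, edgeR adjusted p = 7.78e-06), PMVK (-0.25, 0.00391), INSIG1 (-0.22, 0.00242), STARD4 (-0.59, 4.31e-05), MSMO1 (-0.29, 0.00197) and SC5D (-0.21, 0.000361) made up the falls. ACLY, which cleaves citrate to acetyl-CoA, and ACACA, acetyl-CoA carboxylase, made up the rises (0.11 and 0.17). With GC content also removed IDI1, PMVK, INSIG1 and STARD4 were called lower (-0.19, -0.28, -0.23 and -0.33), and ACACA and FASN higher (0.13 and 0.09). Of the 5 members with a let-7f-5p match, STARD4 had a log2 fold change of -0.57 ± 0.23 and ACSS2, FADS2, SCD and SREBF2 were within 0.00 to 0.10 on the log2 scale before the block.

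HSD17B7, FDFT1, ACLY and ACACA were called in no comparison without the block. ACSS2, LSS and FDPS were called between D538G and WT control cells and in no other comparison.

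**Figure D5:**
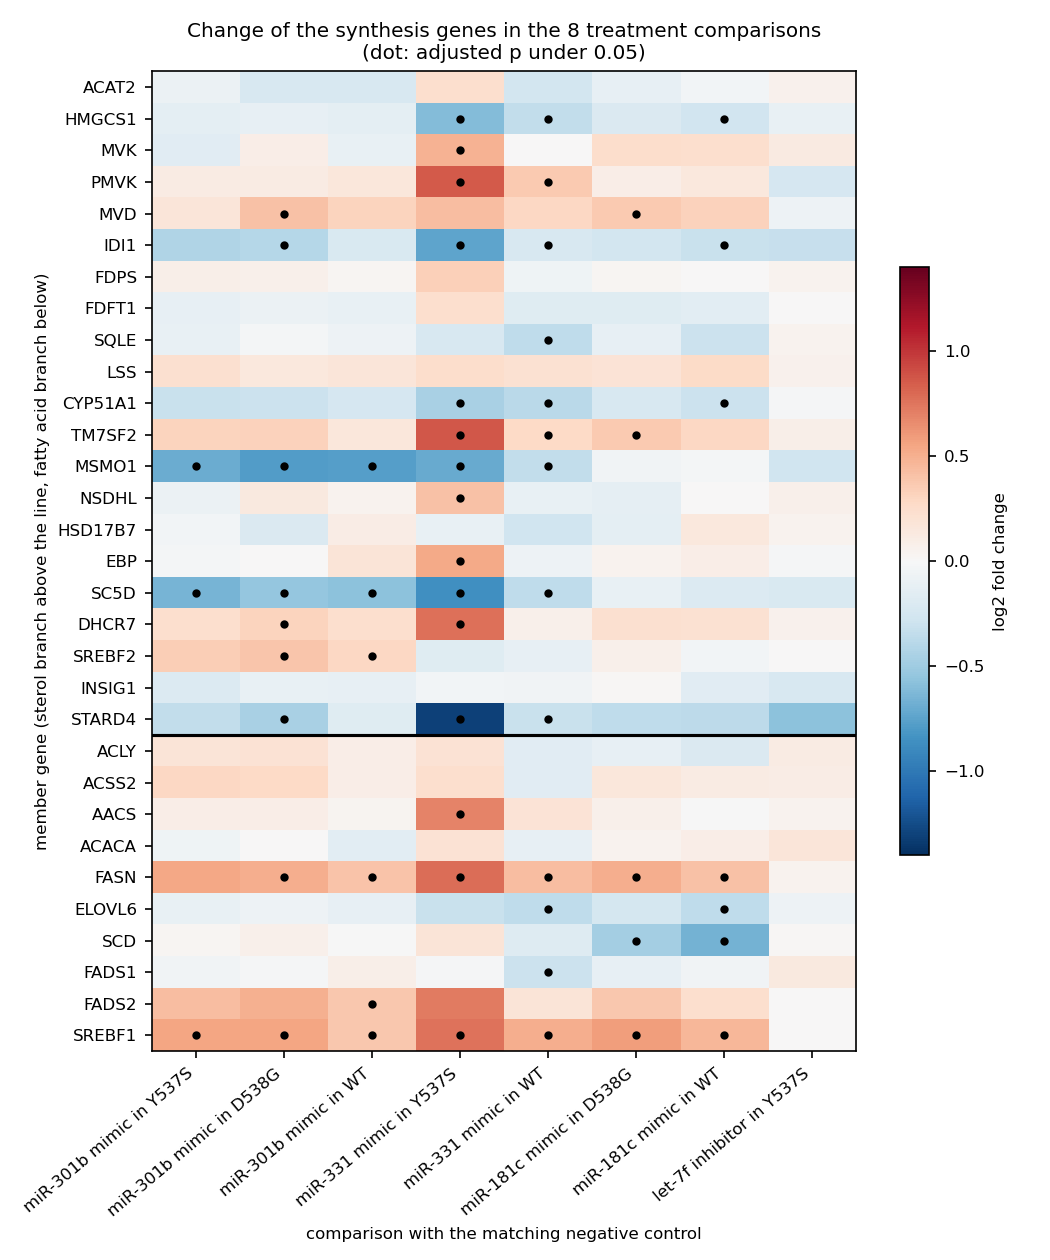
Log2 fold change (colour, red higher and blue lower than the matching negative control) of the 31 members (rows of the map) in the 8 treatment comparisons (columns), with a dot where the edgeR adjusted p was under 0.05. SREBF1 carries a dot under all 7 mimic comparisons, MSMO1 and SC5D under miR-301b and miR-331, SCD under miR-181c alone, and no gene under the let-7f inhibitor.

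A list of 34 other genes of the pathway, covering SREBP processing, sterol transport and lipid assembly, was counted in the same fits, with 32 or 33 of them tested. After miR-301b 3 rose and 2 fell in Y537S (all genes 1.23% and 2.34%), 5 and 4 in D538G (5.29% and 6.49%), and 4 and 4 in WT cells (4.63% and 3.87%). After miR-331 11 rose and 0 fell in Y537S (17.2% and 15.8%), and 8 and 3 in WT cells (14.2% and 10.6%). After miR-181c it was 4 and 4 in D538G (5.58% and 3.95%) and 4 and 7 in WT cells (8.10% and 8.28%). None was called after the let-7f inhibitor. Blocking the clone gave 10 and 9, 10 and 7, and 10 and 9 after miR-301b in Y537S, D538G and WT cells, 14 and 6 in Y537S and 11 and 8 in WT cells after miR-331, 9 and 8 in D538G and 8 and 7 in WT cells after miR-181c, and 1 and 5 after the inhibitor. The absence of falls after miR-331 in Y537S thus did not hold under the block. MBTPS1, the protease that makes the first cut in the SREBPs, had the largest rise after miR-331 in Y537S (log2 fold change 1.10, edgeR adjusted p = 0.00680) and WT cells (0.60, 9.73e-05), after miR-301b in Y537S (0.80, 0.0451) and after miR-181c in D538G cells (0.57, 0.00415). AGPAT2, an acyltransferase, had it after miR-301b in D538G (0.71, 0.00742), and DGAT2, which makes triglycerides, after miR-301b (0.92, 0.0326) and miR-181c (0.74, 0.0358) in WT cells.

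ACSL4, which activates polyunsaturated fatty acids, had the largest fall of that list after miR-181c (-1.25, edgeR adjusted p = 0.00786) and miR-301b (-0.88, 0.0300) in WT cells. ACSL1, another acyl-CoA synthetase, had it after miR-301b in Y537S (-0.85, 0.0214), LIPA, the lysosomal acid lipase, after miR-301b in D538G (-0.56, 0.00643) and miR-331 in WT cells (-0.37, 0.00428), and MBTPS2, the protease that makes the other cut in the SREBPs, after miR-181c in D538G cells (-0.38, 0.0227). In control cells 6 were higher and 10 lower in Y537S than in WT (all genes 16.3% and 12.7%), led by TMEM97 (1.08) and ABCA1 (-1.69), and 6 higher and 11 lower in D538G (20.4% and 18.5%), led by SOAT1 (1.42) and ACSL4 (-2.12).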

How the data were processed

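RNA-seq counts of T-47D clones were analysed as deposited. Per the study's methods, the authors mapped poly-A reads (HISAT2, hg19) and summed them by gene over UCSC Known Genes (featureCounts, Subread). The deposited values are raw counts, whole numbers with no normalization. Tool versions, strand setting and treatment of multiply mapped reads are not given in the sources used here, so genes with pseudogenes (FDPS, IDI1, CYP51A1, HSD17B7, AACS, SCD) or with a coding gene on the other strand (ACAT2, CYP51A1, MVK, ACSS2, ACACA, FADS1, FADS2, SREBF1) are less certain. So are genes that an annotated coding gene overlaps on the same strand (CYP51A1, TM7SF2, EBP, FADS2), whatever the strand setting. Libraries held 31379962 to 50526442 counts. Replicates differed by 11.2 to 48.3 times counting noise, so none was a copy.

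Genes were tested with edgeR 4.0.16 in R 4.3.3 (TMM, filterByExpr at its defaults, quasi-likelihood F test, two-sided, Benjamini-Hochberg over all genes tested, no block), on the libraries of each comparison. The SE is the size of the log2 fold change divided by the square root of F. Tests were checked on simulated counts. Members, lists and tests were chosen with earlier results of these data known. All 31 members were accounted for. Values in every library were given for up to 4 called rises and 4 called falls per comparison, for the 2 smallest p where under 2 were called, for up to 4 members called in a difference of responses, and for SREBF1, SREBF2 and INSIG1. Members with a seed match were named with their change.

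Alternatives were DESeq2 1.42.0, its size factors in edgeR, no low-count filter, all conditions fitted together, a replicate block on the clone, a GC correction (lowess of log2 CPM, prior count 2, on GC content, span 0.3, as an offset), block and GC correction together, and each library left out. Libraries of the same clone heading come from the same clone of T-47D, which pairs them. Their clone differences correlated at 0.298 to 0.738 over 12990 genes. D538G and WT headings name clones that the labels do not, so those columns were assigned to conditions and not to single samples. GENCODE v44 lifted to GRCh37 gave positions, 3′UTRs and GC content, with 22494 genes matched by symbol and 1345 by an older symbol.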

Additional observations from a re-analysis of the deposited data

Results flagged for a closer look

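The response to the miR-331 mimic differed between Y537S and WT cells for 6 members, as a tested difference of the 2 log2 fold changes (edgeR). The differences were -1.02 for STARD4, 0.68 for DHCR7, 0.58 for TM7SF2, -0.53 for SC5D, 0.49 for AACS and 0.48 for PMVK. In Y537S cells the 2 clones moved by -1.38 and -1.27 for STARD4, and in WT cells by -0.45 and -0.21. DHCR7 moved by 0.82 and 0.68 in the Y537S and 0.09 and 0.01 in the WT clones.

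FADS1 and FASN stood on opposite sides of WT in the 2 mutants. They were flagged because both clones of each mutant lay outside the WT clones and the difference between the mutants was called. How many of all genes meet this rule was not counted. With the mimic negative control FADS1 was higher in both Y537S clones and lower in both D538G clones than in the WT clones, and Y537S minus D538G was 1.27 (edgeR adjusted p = 0.00403). FASN was lower in both Y537S and higher in both D538G clones, with a difference of -0.47 (edgeR adjusted p = 0.0445), although FASN was called in neither mutant against WT (-0.32 ± 0.106 and 0.14 ± 0.0646). Its levels were close on the D538G side, at 1982 CPM in clone C2 against 1917 in WT clone D4. The FASN call between the mutants did not hold in both fits that left out 1 D538G clone. With the GC trend removed FASN was at -0.41 in Y537S and 0.02 in D538G against WT, so little of the D538G side was left. FADS1 was then at 0.62 and -0.64. The comparison of the mutants was added after the data had been seen, and with 2 libraries a condition no single library could be tested as standing apart.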

How the results depend on the processing

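The counts below are members called of 31. Shares over all genes, where given above, are for the fit without a block or with the block alone. Counts under the other settings have no such share beside them. The clone pairs the libraries of 1 genotype, and with it as a replicate block the counts rose from 3 to 18 (miR-301b), 15 to 28 (miR-331) and 0 to 8 (let-7f inhibitor) in Y537S, from 9 to 15 (miR-301b) and 5 to 15 (miR-181c) in D538G, from 6 to 14 (miR-301b), 13 to 22 (miR-331) and 7 to 17 (miR-181c) in WT cells, and from 6 to 23 in the difference of miR-331 responses. With replicate block and GC correction they were 13 (miR-301b) and 6 (let-7f inhibitor) in Y537S and 22 for the miR-331 difference. GC correction alone gave 0 and 8 in Y537S (miR-301b, miR-331), 1 and 1 in D538G (miR-301b, miR-181c), and 2, 1 and 2 in WT cells (miR-301b, miR-331, miR-181c). Of the 72 called values of the members named by rule, 34 kept and 34 lost their calls with GC correction alone. With either GC correction 4 calls changed sign, MVD after miR-181c in D538G (-0.023) and, in WT cells, FASN after miR-301b (-0.002), FASN after miR-331 (-0.091) and TM7SF2 after miR-331 (-0.111). No paired analysis was possible between genotypes because they hold different clones. DESeq2 called 7 after miR-301b in Y537S, 12 after miR-181c in WT and 13 for the miR-331 difference. Without the low-count filter 9 (miR-181c, D538G), 14 (miR-181c, WT) and 12 (Y537S against D538G) were called. Fitting all conditions of a genotype together gave 6 after miR-301b in Y537S and 8 after miR-331 in WT cells. With other size factors the 72 called values of the members named by rule kept their calls. Called members outside that rule were counted only.

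With 1 library left out, the lone library of a group is assumed to vary like the others. Counts ranged from 0 to 3 (miR-301b), 13 to 17 (miR-331) and 0 to 0 (let-7f inhibitor) in Y537S, 4 to 11 (miR-301b) and 3 to 7 (miR-181c) in D538G, and 2 to 12 (miR-301b), 3 to 13 (miR-331) and 3 to 10 (miR-181c) in WT cells. They ranged from 5 to 11 (Y537S against WT), 13 to 16 (D538G against WT), 2 to 11 (Y537S against D538G) and 0 to 12 (miR-331 difference), and were 0 in the other 3 differences. Of those 72 values 36 passed in every such fit. With 2 clones a group, an exact permutation test could not go below p = 0.333, so every call rests on the spread shared across genes.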
